A study of Mus musculus with 9 samples.

Results

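The genes described here are 10 regulators of the cell cycle: the cyclins Ccnd1, Ccne1, Ccna2 and Ccnb1, the cyclin-dependent kinases (CDKs) Cdk1 and Cdk4, the CDK inhibitors Cdkn1a and Cdkn1b, and the transcription factors E2f1 and Myc. They were picked out by gene symbol, with no threshold on their values, and they are 10 of the 23282 gene rows in each library. The choice was made with earlier results of these data known. RNA was sequenced from RAW 264.7 cells, a mouse macrophage-like line of BALB/c origin that was transformed by a virus and that can form osteoclasts in response to the cytokine RANKL. There were 9 libraries, 3 in each of 3 groups, all from cells at passage 30 that were treated for 4 days. The negative control received RANKL alone at 50 ng/mL. The surface protein-treated cells received RANKL at 50 ng/mL together with 10 µg/mL of protein extracted from the surface of the bacterium Propionibacterium freudenreichii MJ2. The third group received heat-killed MJ2 at 10000000 cells/mL, and whether RANKL was added to each of these cultures is not stated in the labels. A single line stands for the osteoclast precursor here, and the labels do not say whether replicate libraries came from separate cultures, so the p-values measure the spread between these samples, which may be technical.

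Each cyclin binds and activates a CDK at its own stage of the cell cycle. Cyclin D with CDK4 acts early in G1 phase and phosphorylates the retinoblastoma protein, which frees E2F factors to switch on cyclin E, cyclin A and the genes of DNA replication, and cyclin B with CDK1 then drives entry into mitosis. Cdkn1a and Cdkn1b encode the inhibitors p21 and p27, which bind cyclin-CDK complexes, and Myc promotes growth and entry into the cycle. Osteoclast precursors divide before they leave the cell cycle and fuse into multinucleated osteoclasts, which no longer divide.

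The libraries were read from the 3′ end of the mRNA, and the deposited value of a gene is a log2 level. Raising 2 to that value and subtracting 1 gives a level that is called adjusted reads here. The sum of adjusted reads per library ran from 5930926 to 6503682, with a median of 6195319. In 3 libraries, 1 in each group, rows that were at 0 elsewhere held fractions of a read. Without these 3 libraries only Cdk1 (log2 fold change -2.17, adjusted p = 0.049) and E2f1 (-1.33, adjusted p = 0.029) of the 10 genes passed the limma test described next against RANKL alone, and none passed in the other comparisons, where 3 (heat-killed MJ2 against RANKL alone) and 6 (surface proteins against heat-killed MJ2) had an unadjusted p under 0.05. Of 8 macrophage markers, 7 had at least 10 adjusted reads in every library, while Mertk was at 0 in every library. T cell and B cell markers summed to at most 10.7 adjusted reads in a library, and fibroblast and osteoblast markers to at most 88.2. Epithelial markers summed to at most 7.34.

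All 10 genes met the minimum for testing in each comparison, 10 adjusted reads in 3 or more of its 6 libraries. Differences are log2 fold changes from limma, given with a standard error (SE), and a gene is said to have risen or fallen where its p-value, adjusted by the Benjamini-Hochberg method over all genes tested, was under 0.05. With surface proteins, compared with RANKL alone, 1 of the 10 genes rose (Cdkn1a) and 5 fell (Cdk1, Ccnb1, E2f1, Ccna2 and Cdkn1b). Over all 10874 genes tested in that comparison, 15.9% rose and 13.2% fell. A fold change of at least 2 as well left 3 of the 10 genes, against 17.5% of all genes. For 7 of the 10 genes the libraries of these groups did not overlap, against 48.4% of all genes. The median log2 fold change of the 10 genes was -0.64, and that of all genes tested was -0.01. With heat-killed MJ2, compared with RANKL alone, Cdkn1a rose and Cdkn1b fell, while the other 8 genes did not pass. There 4.04% of 10814 genes rose and 1.84% fell, the 10 genes had a median log2 fold change of 0.23, and all genes had one of 0.00. None of the 10 genes passed with a fold change of at least 2, which 4.26% of all genes did, and 4 of the 10 genes did not overlap, against 30.2% of all genes. Between the treatments, 6 of the 10 genes were lower with surface proteins than with heat-killed MJ2 (Ccnd1, Ccne1, Ccna2, Ccnb1, Cdk1 and E2f1) and none was higher (1 was higher at an unadjusted p under 0.05). Of 10916 genes tested there, 9.21% were higher and 8.65% lower with surface proteins. With a fold change of at least 2 there were 5 of the 10 genes, against 10.1% of all genes, and 7 of the 10 did not overlap, against 42.3%. The median log2 fold change in that comparison was -0.98 for the 10 genes and 0.03 for all genes. The comparisons share libraries, so their values are given side by side and are not independent. These are bulk samples, in which fewer cells in a given phase of the cycle cannot be told apart from less RNA of these genes in each cell. An exact permutation test of 3 libraries against 3 cannot give a two-sided p below 0.1, and it gave p = 0.1 for every gene and comparison whose groups did not overlap.

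**Figure D1:**
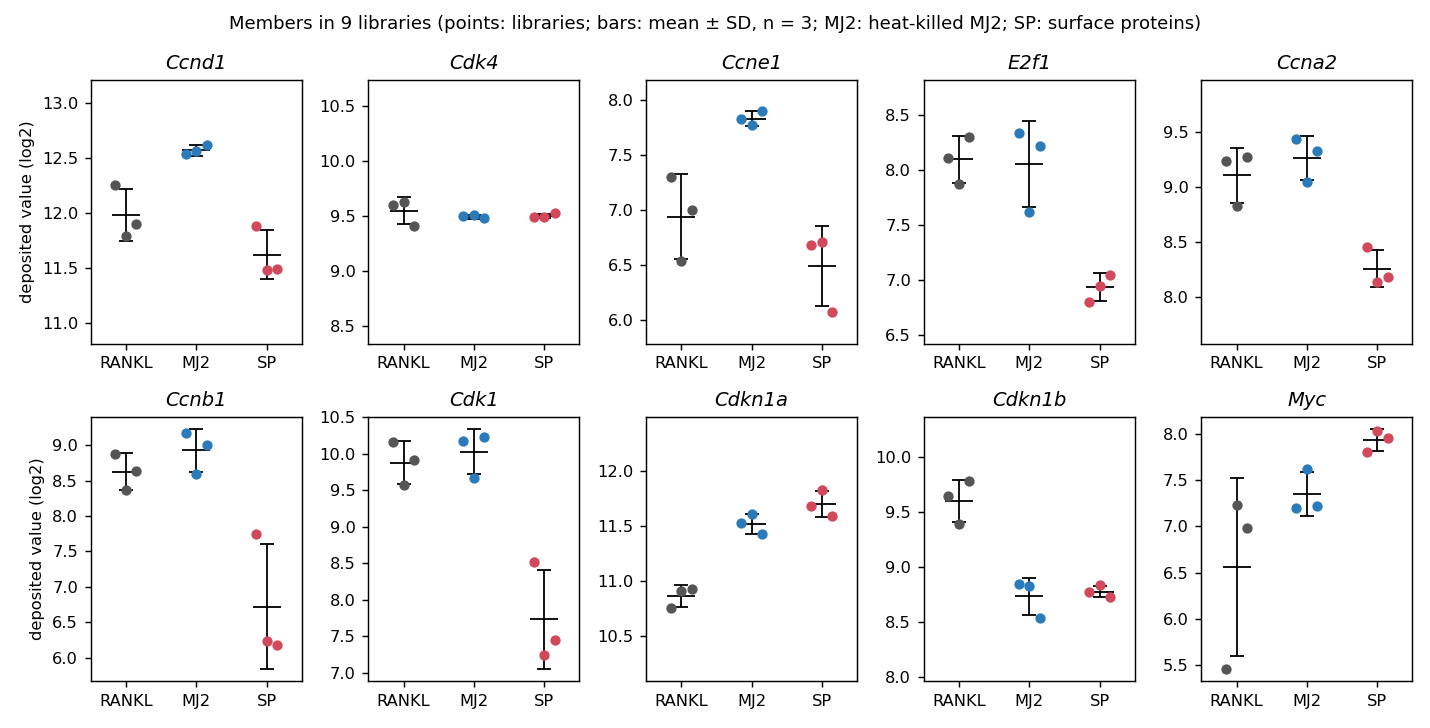
Deposited log2 level (vertical axis) of each of the 10 genes in the 9 libraries, with a panel for each gene, a point for each library and a bar for the mean ± SD of each group (RANKL alone, heat-killed MJ2 as MJ2 and surface proteins as SP, n = 3 each). Cdk1, Ccnb1, Ccna2 and E2f1 had their 3 lowest libraries with surface proteins, Cdkn1a and Cdkn1b moved in opposite directions in both treated groups, and Cdk4 lay between 9.41 and 9.63 in all 9 libraries.

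Cdk1 and Ccnb1, the kinase and the cyclin of mitotic entry, differed most from the negative control among the genes that passed. Cdk1 had log2 levels of 10.16, 9.57 and 9.91 with RANKL alone, of 10.18, 9.67 and 10.23 with heat-killed MJ2, and of 8.51, 7.24 and 7.45 with surface proteins. Every library with surface proteins lay below the other 6, and replicate 1 of that group lay above its other two. In adjusted reads the mean of Cdk1 was 956 with RANKL alone, 1059 with heat-killed MJ2 and 229 with surface proteins. With surface proteins Cdk1 fell by 2.15 on the log2 scale relative to RANKL alone (SE 0.36, adjusted p = 0.0082), a 4.45-fold difference, and 6.31% of all genes tested had a larger absolute change. Its change with heat-killed MJ2 was 0.14 (95% interval -0.41 to 0.70, adjusted p = 0.75). Against heat-killed MJ2, Cdk1 was lower with surface proteins by a log2 fold change of -2.30 (SE 0.36, adjusted p = 0.014). Without replicate 1 of the surface protein group, the log2 fold change against RANKL alone was -2.54.

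Ccnb1 had log2 levels of 8.88, 8.37 and 8.64 with RANKL alone, of 9.18, 8.59 and 9.01 with heat-killed MJ2, and of 7.74, 6.24 and 6.18 with surface proteins. The surface protein libraries were again the 3 lowest, with replicate 1 set apart above the others, and the RANKL alone and heat-killed MJ2 libraries overlapped. With surface proteins Ccnb1 fell by 1.91 relative to RANKL alone (SE 0.44, adjusted p = 0.022), a 3.76-fold difference. The change with heat-killed MJ2 was 0.30 (adjusted p = 0.47), and the difference between the treatments was -2.21 (SE 0.44, adjusted p = 0.025). The fall of Ccnb1 against RANKL alone did not pass when RANKL alone replicate 1 or 3, or surface protein replicate 2 or 3, was left out (adjusted p from 0.061 to 0.072, log2 fold change from -1.90 to -1.64). Within a library, the log2 level of Ccnb1 minus that of Ccna2 was -0.35, -0.46 and -0.63 with RANKL alone and -0.72, -1.90 and -2.01 with surface proteins. A single scaling factor for a library leaves that difference as it is, while a quantile adjustment would not, and its groups did not overlap.

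The promoters of Cdk1 and Ccnb1 are shown because these genes had the closest profiles among the 10: over the 9 libraries, the root mean square difference of their log2 levels, each centred on its own mean, was 0.164. The sequences are from RefSeq on GRCm38.p6, 5′ to 3′ on the strand of the gene. RefSeq windows reach to 250 bases before the RefSeq start, and only the part before the gene as GENCODE M21 places it is printed, here and for the genes that follow, since the GENCODE gene begins earlier than the RefSeq start (by 26 bases for Cdk1 and 84 for Ccnb1). Capitals mark the CCAAT box (CCAAT), the cell cycle homology region (CHR, TTTGAA or TTCGAA) and the GC box (GGGCGG), each searched on both strands, so that ATTGG and CCGCCC are matches on the reverse strand.
Cdk1 chr10:69352939-69353162, minus strand: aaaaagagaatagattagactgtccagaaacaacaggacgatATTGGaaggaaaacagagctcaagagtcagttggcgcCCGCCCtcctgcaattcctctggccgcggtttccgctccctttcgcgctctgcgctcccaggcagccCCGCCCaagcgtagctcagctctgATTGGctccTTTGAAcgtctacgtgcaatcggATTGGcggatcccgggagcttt
Ccnb1 chr13:100786571-100786736, minus strand: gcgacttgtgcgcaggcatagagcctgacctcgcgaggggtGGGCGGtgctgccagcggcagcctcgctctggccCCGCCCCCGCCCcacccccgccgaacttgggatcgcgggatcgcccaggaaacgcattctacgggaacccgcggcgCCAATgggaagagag
The whole Cdk1 window held 3 CCAAT boxes, 2 CHR matches and 2 GC boxes. A CHR match lay 71 to 66 bases before the RefSeq start, and the other, 15 to 10 bases before it, lies inside the GENCODE gene and is not printed. The whole Ccnb1 window held 2 CCAAT boxes, of which 1 is in the printed part, and 3 GC boxes. Neither TTTGAA nor TTCGAA was found in it, and other variants of the CHR were not searched. Of 32851 RefSeq promoter windows of this length, 33.8% held a CCAAT box, 17.1% a CHR match and 32.7% a GC box. RefSeq promoter windows were matched for 7 of the 10 genes, with Ccnd1, Ccna2 and Myc unmatched, and the E2f1 window lies wholly inside the GENCODE gene, so it is not described. The Cdkn1b window, which is not printed, also held 2 CCAAT boxes and 1 GC box, with no CHR match, so these boxes are not particular to Cdk1 and Ccnb1. A match of letters is a description of the sequence and does not show that a factor binds there.

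Ccna2, the cyclin of S and G2 phase, also fell with surface proteins. Its log2 levels were 9.24, 8.83 and 9.28 with RANKL alone, 9.44, 9.05 and 9.33 with heat-killed MJ2, and 8.46, 8.14 and 8.19 with surface proteins. The surface protein libraries lay below the other 6, and the RANKL alone and heat-killed MJ2 libraries overlapped. Relative to RANKL alone the log2 fold change with surface proteins was -0.85 (SE 0.18, adjusted p = 0.019), and with heat-killed MJ2 it was 0.16 (adjusted p = 0.67). The difference between the treatments was -1.01 (SE 0.17, adjusted p = 0.016). Without RANKL alone replicate 1 or 3, or surface protein replicate 2 or 3, the fall against RANKL alone did not pass (adjusted p from 0.058 to 0.063, log2 fold change from -0.81 to -0.77). In GENCODE M21 on GRCm38, 147 of the last 500 bases of the Ccna2 gene are exonic in both Ccna2 and Exosc9, which lies on the opposite strand, and whether reads were counted by strand is not given in the sources used here. Exosc9 itself had a log2 fold change of -0.06 with surface proteins (adjusted p = 0.83).

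E2f1 encodes the transcription factor that is released from the retinoblastoma protein at the end of G1 phase. It had log2 levels of 8.11, 7.88 and 8.30 with RANKL alone, of 8.34, 7.62 and 8.22 with heat-killed MJ2, and of 6.80, 6.95 and 7.05 with surface proteins. The last of these groups was lower in each library than the other 6, and its libraries lay close to one another. E2f1 fell by 1.16 with surface proteins relative to RANKL alone (SE 0.17, adjusted p = 0.0050), a 2.24-fold difference, whereas its change with heat-killed MJ2 was -0.04 (adjusted p = 0.94). Between the treatments the difference was -1.12 (SE 0.22, adjusted p = 0.023). The falls of Cdk1 and E2f1 against RANKL alone passed under each of 18 alternative settings, which none of the other changes did.

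Ccne1, the cyclin that E2F factors induce at the start of S phase, had a different order of groups. Its log2 levels were 7.30, 6.54 and 7.00 with RANKL alone, 7.83, 7.77 and 7.90 with heat-killed MJ2, and 6.68, 6.71 and 6.07 with surface proteins. The heat-killed MJ2 libraries were the 3 highest and close together, and the other groups overlapped. The log2 fold change against RANKL alone was 0.89 with heat-killed MJ2 (95% interval 0.37 to 1.41, adjusted p = 0.071) and -0.46 with surface proteins (95% interval -1.12 to 0.20, adjusted p = 0.25), so neither difference from the control passed. The treatments differed from each other by -1.35 (SE 0.21, adjusted p = 0.014), a 2.54-fold lower level with surface proteins. The Ccne1 promoter is shown to set the known E2F target beside E2f1, with GC boxes and the E2F core (GGCGGGA or GGCGCGA, both strands) in capitals.
Ccne1 chr7:38107535-38107740, minus strand: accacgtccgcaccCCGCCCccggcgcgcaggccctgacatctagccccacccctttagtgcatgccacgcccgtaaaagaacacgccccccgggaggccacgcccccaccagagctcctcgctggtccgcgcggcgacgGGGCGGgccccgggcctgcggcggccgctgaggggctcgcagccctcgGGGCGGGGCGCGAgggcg
The whole window held 4 GC boxes and 2 E2F core matches. In the printed part, which leaves out the last 44 bases, there are 3 GC boxes and 1 E2F core, which follows a GC box directly, in a run of capitals 62 to 50 bases before the RefSeq start. An E2F core was found in 11.7% of all promoter windows of this length.

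Ccnd1 encodes cyclin D1, the partner of CDK4 that responds to growth signals. Its log2 levels were 12.25, 11.79 and 11.90 with RANKL alone, 12.53, 12.56 and 12.62 with heat-killed MJ2, and 11.88, 11.48 and 11.49 with surface proteins. As for Ccne1, the heat-killed MJ2 libraries were the 3 highest, and the libraries of the other groups overlapped. Against RANKL alone the log2 fold change was 0.59 with heat-killed MJ2 (95% interval 0.20 to 0.98, adjusted p = 0.094) and -0.36 with surface proteins (95% interval -0.83 to 0.11, adjusted p = 0.21). Surface proteins gave a lower level than heat-killed MJ2 by -0.95 (SE 0.16, adjusted p = 0.016). The last 500 bases of the Ccnd1 gene all overlap an exon of Oraov1 (LTO1) on the opposite strand, so without knowledge of the strand setting their reads cannot be told apart. Mean log2 levels of Oraov1 were 5.19 with RANKL alone, 5.34 with heat-killed MJ2 and 6.23 with surface proteins, below those of Ccnd1. Oraov1 had log2 fold changes of 1.04 (adjusted p = 0.19) with surface proteins and 0.15 (adjusted p = 0.87) with heat-killed MJ2.

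Cdk4, the kinase bound by cyclin D, was the steadiest of the 10 genes. It had log2 levels of 9.60, 9.63 and 9.41 with RANKL alone, of 9.50, 9.51 and 9.48 with heat-killed MJ2, and of 9.49, 9.49 and 9.53 with surface proteins. The groups overlapped throughout. The log2 fold change was -0.04 with surface proteins (95% interval -0.37 to 0.28, adjusted p = 0.83) and -0.05 with heat-killed MJ2 (95% interval -0.36 to 0.26, adjusted p = 0.84), and the treatments differed by 0.01 (95% interval -0.28 to 0.29, adjusted p = 0.97). In the same libraries, Cdk1 minus Cdk4 averaged 0.34 ± 0.34 (SD, n = 3) on the log2 scale with RANKL alone, 0.53 ± 0.32 (SD, n = 3) with heat-killed MJ2 and -1.77 ± 0.69 (SD, n = 3) with surface proteins. The last 500 bases of the Cdk4 gene all overlap an exon of Tspan31, a tetraspanin gene on the opposite strand. Tspan31 rose with surface proteins (1.37, SE 0.17, adjusted p = 0.0033) and with heat-killed MJ2 (0.81, adjusted p = 0.040), and reads of these overlapping genes cannot be told apart without the strand setting. The promoter of Cdk4, a known MYC target, is shown with the E-box (CACGTG) and the GC box in capitals.
Cdk4 chr10:127063285-127063533, plus strand: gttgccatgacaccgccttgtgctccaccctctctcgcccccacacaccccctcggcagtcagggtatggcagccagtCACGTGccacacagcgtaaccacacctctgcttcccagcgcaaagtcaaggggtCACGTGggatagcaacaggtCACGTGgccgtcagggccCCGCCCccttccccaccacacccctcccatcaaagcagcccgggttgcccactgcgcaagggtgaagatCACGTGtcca
It held 4 E-boxes and 1 GC box, and 6.02% of all promoter windows of this length held an E-box.

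The CDK inhibitors moved in opposite directions. Cdkn1a had log2 levels of 10.75, 10.91 and 10.93 with RANKL alone, of 11.53, 11.61 and 11.43 with heat-killed MJ2, and of 11.68, 11.83 and 11.59 with surface proteins. Every treated library was above every library with RANKL alone, and the treated groups overlapped. Cdkn1a rose by 0.84 with surface proteins (SE 0.14, adjusted p = 0.0083) and by 0.66 with heat-killed MJ2 (SE 0.13, adjusted p = 0.043), that is, 1.79-fold and 1.58-fold. The difference between the treatments was 0.18 (95% interval -0.15 to 0.51, adjusted p = 0.38). The first of its 2 RefSeq promoter windows is shown because it holds a p53 response element, a pair of half-sites without a gap and with at most 1 mismatch, which is in capitals. This element was added to the search after the sequence had been seen.
Cdkn1a chr17:29090729-29090975, plus strand: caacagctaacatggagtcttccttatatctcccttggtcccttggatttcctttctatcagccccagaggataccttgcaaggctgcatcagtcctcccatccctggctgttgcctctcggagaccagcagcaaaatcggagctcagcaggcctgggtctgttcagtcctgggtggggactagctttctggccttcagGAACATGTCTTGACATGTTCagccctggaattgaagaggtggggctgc
The element lay 51 to 32 bases before the RefSeq start, and such an element was found in 25 of the 32851 promoter windows, or 0.0761%. The second Cdkn1a window, which lies inside the gene, held 2 GC boxes and no p53 element.

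Cdkn1b had log2 levels of 9.64, 9.39 and 9.78 with RANKL alone, of 8.84, 8.82 and 8.53 with heat-killed MJ2, and of 8.77, 8.83 and 8.72 with surface proteins. The treated libraries were the 6 lowest, and the treated groups overlapped. Relative to RANKL alone, Cdkn1b fell by 0.83 with surface proteins (SE 0.15, adjusted p = 0.011) and by 0.87 with heat-killed MJ2 (SE 0.17, adjusted p = 0.038). The treatments differed from each other by 0.04 (95% interval -0.30 to 0.39, adjusted p = 0.85). Within a library, Cdkn1a minus Cdkn1b was 1.11, 1.52 and 1.16 on the log2 scale with RANKL alone, 2.68, 2.79 and 2.89 with heat-killed MJ2, and 2.91, 3.00 and 2.87 with surface proteins. The treated libraries were higher by this measure, with no overlap with the control. The changes of both inhibitors with heat-killed MJ2 did not pass in any of the 6 fits that left out 1 library, whichever library it was (adjusted p from 0.094 to 0.14 for Cdkn1a, with log2 fold changes from 0.60 to 0.70, and from 0.053 to 0.12 for Cdkn1b, with log2 fold changes from -0.98 to -0.77), nor with the replicate number as a block (adjusted p = 0.11 for each). With surface proteins, both passed in each of these fits.

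Myc, which is expressed in response to growth signals, had the widest spread among the control libraries. Its log2 levels were 5.46, 7.23 and 6.98 with RANKL alone, 7.20, 7.62 and 7.22 with heat-killed MJ2, and 7.80, 8.03 and 7.95 with surface proteins. RANKL alone replicate 1 was far below the other 8 libraries, with 43 adjusted reads against 149 and 126 in its group, and the surface protein libraries were the 3 highest. The log2 fold change with surface proteins was 1.37 (95% interval 0.26 to 2.48, adjusted p = 0.069) and did not pass. Without RANKL alone replicate 1 it was 0.82 and passed (adjusted p = 0.032), and without RANKL alone replicate 2 it was 1.71 and passed (adjusted p = 0.049). With heat-killed MJ2 it was 0.79 (SE 0.47, adjusted p = 0.38), and without RANKL alone replicate 1 it was 0.24. The treatments differed by 0.58 (SE 0.17, adjusted p = 0.063), a difference that passed without heat-killed MJ2 replicate 2 (0.72, adjusted p = 0.037).

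**Figure D2:**
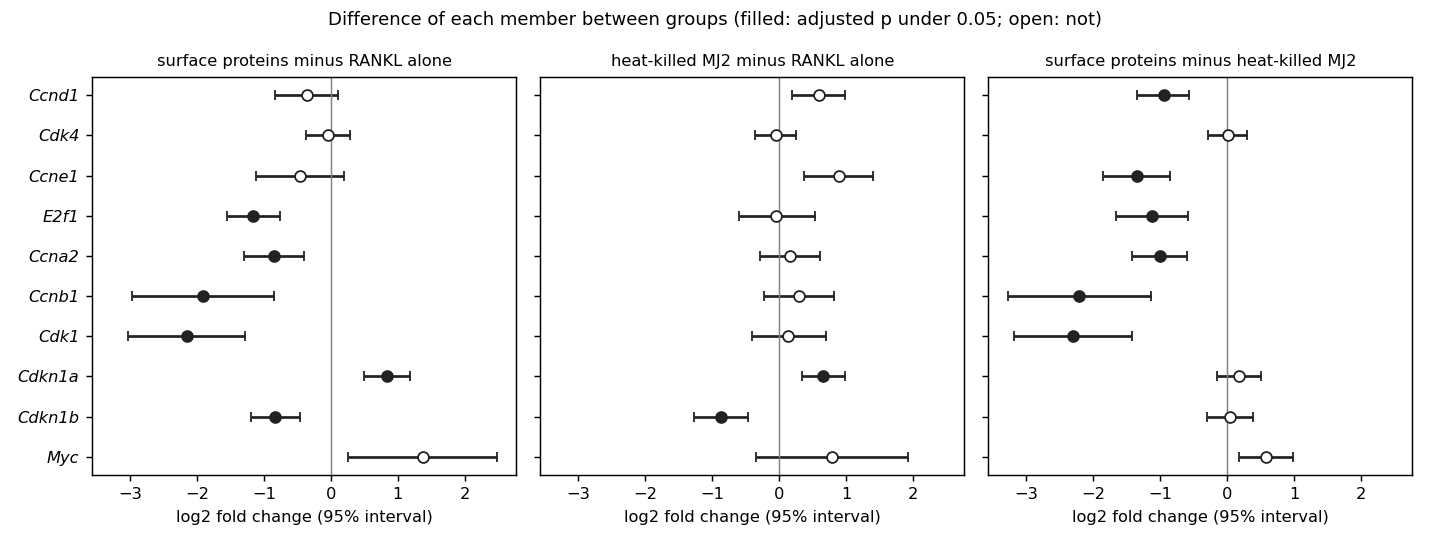
Log2 fold change of each of the 10 genes with its 95% interval from limma (horizontal axis) in the 3 comparisons, with filled points for an adjusted p under 0.05 (n = 3 libraries a group). With surface proteins against RANKL alone the points run from -2.15 for Cdk1 to 1.37 for Myc, and against heat-killed MJ2 the 6 genes that passed all lie below 0.

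For the 6 genes that differed between the treatments, the sizes stayed close when single libraries were left out, while the calls did not. The log2 fold change of Cdk1 ran from -2.69 to -2.05 and that of Ccnd1 from -1.08 to -0.89. By limma, none of the 6 passed without heat-killed MJ2 replicate 1 (adjusted p from 0.056 to 0.083) or replicate 3 (adjusted p from 0.052 to 0.079), and their log2 fold changes in those fits ran from -2.22 for Cdk1 to -0.93 for Ccna2 and Ccnd1. Without surface protein replicate 2 there were 2 that passed (Ccne1 and Cdk1), and without surface protein replicate 3 there were 3 (Ccnd1, Ccne1 and Cdk1). In the fits without heat-killed MJ2 replicate 1 or 3, 7 of the 10 genes had an unadjusted p under 0.05. E2f1 did not pass without surface protein replicate 1 either (-1.06, adjusted p = 0.053). No gene of the 6 changed sign in these fits.

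Other genes of the cell cycle were counted in lists by role, which are described by counts and medians only. The lists, too, were chosen with earlier results of these data known. Of 21 regulators of CDK activity tested, 17 fell and none rose with surface proteins relative to RANKL alone, with a median log2 fold change of -1.60, where 15.9% of all genes rose and 13.2% fell. Among them Plk1, a mitotic kinase, fell by 2.90 (SE 0.54, adjusted p = 0.011) and Mybl2, a transcription factor of the late cell cycle, had a log2 fold change of -2.43 (SE 0.42, adjusted p = 0.0089). Plk1 had 721, 523 and 666 adjusted reads with RANKL alone and 188, 39.3 and 78.1 with surface proteins, so replicate 1 was again the highest of its group. Of 23 E2F target genes, 20 fell and none rose, with a median of -1.84, against those same shares. Mcm6, a subunit of the replicative helicase, fell from 727, 516 and 572 adjusted reads to 102, 46 and 60.5, a log2 fold change of -3.17 (SE 0.31, adjusted p = 0.0016), and Uhrf1, a cofactor of maintenance DNA methylation, fell by 2.71 (adjusted p = 0.0033). Of 12 genes of the retinoblastoma and E2F families other than E2f1, 5 fell and none rose (median -0.43), among them the repressor-type factors E2f8 (-3.04, adjusted p = 0.0099) and E2f7 (-2.44, adjusted p = 0.039). With heat-killed MJ2, no gene of these lists passed limma's test in either direction, where 4.04% of all genes rose and 1.84% fell, and the medians were 0.03 for the regulators, 0.08 for the E2F targets and 0.02 for the families. At an unadjusted p under 0.05 there were 2 of the regulators, 1 of the E2F targets and 2 of the family genes. Between the treatments, 15 of the 21 regulators, 20 of the 23 E2F targets and 4 of the 12 family genes were lower with surface proteins, where 8.65% of all genes were lower. These were led by Plk1 (-3.16, adjusted p = 0.019) and Wee1 (-2.50, adjusted p = 0.0067), by Rrm2 (-3.23, adjusted p = 0.0052) and Mcm6 (-3.09, adjusted p = 0.0067), and by E2f8 (-2.99, adjusted p = 0.020) and Rbl1 (-1.56, adjusted p = 0.015).

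Other members of the cyclin, CDK and inhibitor families were counted as well. Of 16 other cyclins tested, 2 rose and 3 fell with surface proteins (median -0.12), shares near those over all genes (15.9% rose and 13.2% fell). Ccnb2, the second B-type cyclin, fell by 2.22 (adjusted p = 0.032) and Ccnf fell by 2.05 (adjusted p = 0.0096), while Ccnh, the cyclin of the CDK-activating kinase, rose by 0.66 (adjusted p = 0.017). Ccnd2, a D-type cyclin like Ccnd1, had 9.29, 0.0913 and 0 adjusted reads with RANKL alone and 52.9, 67.3 and 56.8 with surface proteins. It is the other of the 2 that rose, but it met the minimum for testing only through the group in which it is high, so its p supports nothing and is not given. Of 14 other CDKs, 2 rose and 1 fell (median 0.04), again near those shares. Cdk14 rose with surface proteins by 2.09 (SE 0.18, adjusted p = 9.4e-04) and with heat-killed MJ2 by 0.95 (adjusted p = 0.031), Cdk17 rose with surface proteins by 1.10 (adjusted p = 0.047), and Cdk2, the partner of cyclins E and A, fell with surface proteins by 0.87 (adjusted p = 0.028). Of 6 other CDK inhibitors only 3 were tested, of which Cdkn2c fell with surface proteins by 1.79 (adjusted p = 0.046). With heat-killed MJ2, no other cyclin or inhibitor passed limma's test, where 4.04% of all genes rose and 1.84% fell. At an unadjusted p under 0.05 there were 3 cyclins and 1 inhibitor. Between the treatments, 4 of the 16 other cyclins were lower with surface proteins, where 8.65% of all genes were lower and 9.21% higher, with Ccnb2 (-2.28, adjusted p = 0.044) and Ccnf (-1.86, adjusted p = 0.026) as the lowest. Cdk14 (1.14, adjusted p = 0.0075) and Cdk19 (0.68, adjusted p = 0.028) were higher there and Cdk6 (-1.13, adjusted p = 0.021) was lower.

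p53 activates Cdkn1a, so p53 and its other target genes were counted beside it. Of 15 tested, 6 were called higher and 1 lower with surface proteins, with a median of 0.76, where 15.9% of all genes rose and 13.2% fell. Of these 6, Gadd45a, Sesn2 and Plk2 met the minimum for testing through the surface protein libraries, since at most 1 library with RANKL alone reached 10 adjusted reads, so the count and the median are no support for a direction of the list. The other higher calls were Mdm2 (0.76, adjusted p = 0.023), Bbc3 (2.10, adjusted p = 0.0023) and Btg2 (1.03, adjusted p = 0.0089), which had more than 10 adjusted reads in every library. Gadd45a, a stress-response gene, had 2.72, 4.43 and 1.96 adjusted reads with RANKL alone, 53.2, 103 and 15.7 with heat-killed MJ2, and 347, 510 and 362 with surface proteins. Plk2 had 3.66, 35.7 and 4.93 with RANKL alone, 221, 413 and 172 with heat-killed MJ2, and 196, 299 and 205 with surface proteins. Both were higher in every treated library than with RANKL alone. Sesn1 fell by 2.83 with surface proteins (adjusted p = 0.015) and by 1.33 with heat-killed MJ2 (adjusted p = 0.032). With heat-killed MJ2, 3 of the 15 were called higher and 1 lower, where 4.04% of all genes rose and 1.84% fell. Of these 3, Gadd45a and Plk2 met the minimum through the heat-killed MJ2 libraries in the same way, so that count supports no direction either. The remaining higher call was Mdm2 (0.83, adjusted p = 0.034). Between the treatments, 4 of the 15 were higher with surface proteins and 1 was lower, where 9.21% of all genes were higher and 8.65% lower. Among them were Gadd45a (3.14, adjusted p = 0.026), Sesn2 (1.80, adjusted p = 0.012) and Aen (-0.94, adjusted p = 0.012). Of 12 genes of the MYC network, Mycn rose with surface proteins (0.78, adjusted p = 0.017) and the other 11 did not pass, where 15.9% of all genes rose and 13.2% fell. No gene of that network passed limma's test in the other comparisons, where 2 (heat-killed MJ2 against RANKL alone) and 3 (between the treatments) had an unadjusted p under 0.05. Of 20 MYC target genes, 6 fell and none rose with surface proteins (median -0.46), against those same shares of all genes, with Nop56 (-0.80, adjusted p = 0.011) and Nolc1 (-0.62, adjusted p = 0.045), both of ribosome production, among them. With heat-killed MJ2 Odc1, the first enzyme of polyamine synthesis, was the single gene of that list to rise (2.54, SE 0.18, adjusted p = 0.0014), and none fell. That count is near the shares over all genes, of which 4.04% rose and 1.84% fell. Odc1 was lower with surface proteins than with heat-killed MJ2 (-1.96, adjusted p = 0.0036), as was Polr1b, a subunit of RNA polymerase I (adjusted p = 0.037), among 6 genes of that list that were lower and none that was higher, where 8.65% of all genes were lower and 9.21% higher. Of 10 reference genes, Tbp (0.76, adjusted p = 0.019) and B2m (0.76, adjusted p = 0.017) rose and Sdha (-0.71, adjusted p = 0.037) fell with surface proteins (median -0.01), near the shares over all genes (15.9% rose and 13.2% fell), and none passed limma's test with heat-killed MJ2 or between the treatments, where 4 and 2 had an unadjusted p under 0.05.

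**Figure D3:**
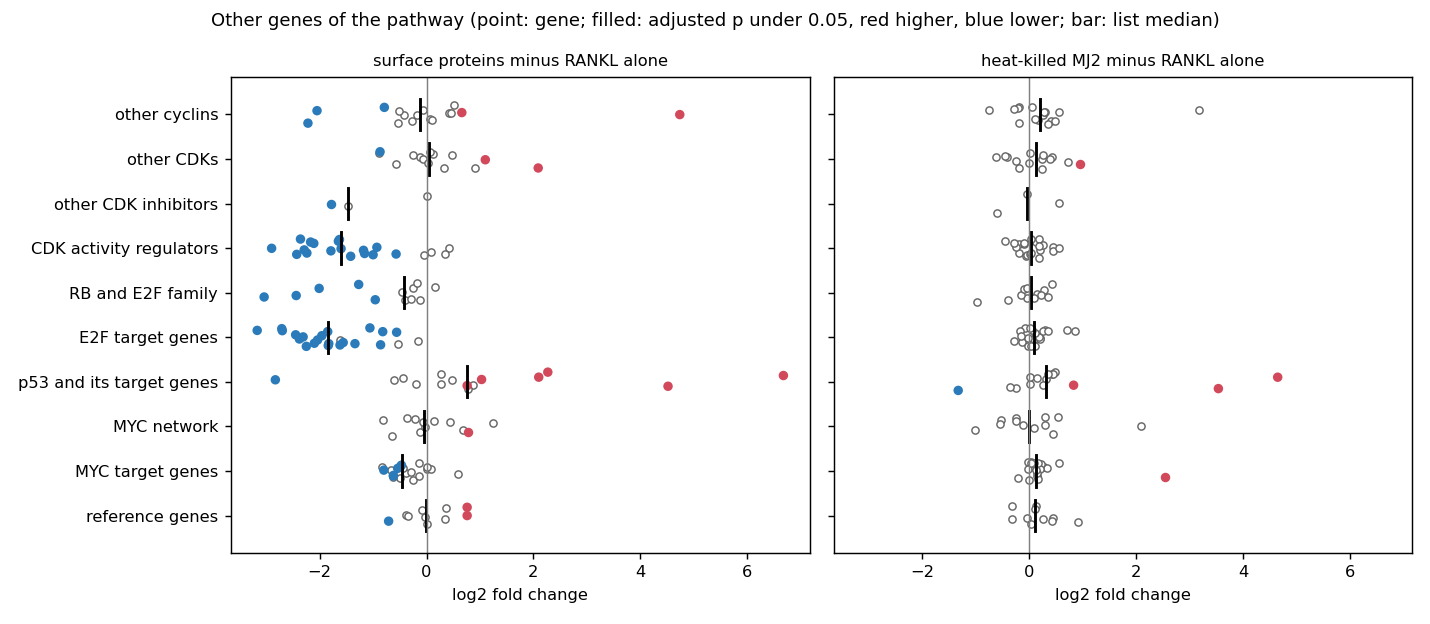
Log2 fold change (horizontal axis) of the genes of each list with surface proteins and with heat-killed MJ2, each against RANKL alone, with a point for each gene tested, filled where the adjusted p was under 0.05 (red higher, blue lower), and a black bar at the median of the list. With surface proteins the medians of the E2F targets (-1.84) and of the regulators of CDK activity (-1.60) lie below 0, and with heat-killed MJ2 the medians of these lists are 0.08 and 0.03.

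Markers of the osteoclast moved in the same libraries. Of 8 osteoclast markers, 7 had at least 10 adjusted reads in every library, while Calcr had at most 4.93. Their sum ran from 17073 to 28379 adjusted reads with RANKL alone, from 12052 to 14038 with heat-killed MJ2 and from 4958 to 7349 with surface proteins, and the groups did not overlap. Of the 7 tested, 5 fell with surface proteins, where 13.2% of all genes fell, and 2 with heat-killed MJ2, where 1.84% did. Acp5, the gene of the TRAP enzyme, fell by 2.66 with surface proteins (adjusted p = 0.0063) and by 1.11 with heat-killed MJ2 (adjusted p = 0.029), and Ocstamp, a fusion gene, fell by 4.11 with surface proteins (adjusted p = 8.5e-04). The macrophage markers moved in both directions. Of the 7 tested, 5 rose and 1 fell with surface proteins (median 2.48), and 4 rose and none fell with heat-killed MJ2 (median 2.26). Over all genes 15.9% rose and 13.2% fell with surface proteins, and 4.04% rose and 1.84% fell with heat-killed MJ2. With surface proteins Adgre1 rose by 3.81 (adjusted p = 0.0046) and Fcgr3 by 3.24 (adjusted p = 0.0085), while Csf1r, the receptor of macrophage colony-stimulating factor, had a log2 fold change of -1.47 (adjusted p = 0.0039). With heat-killed MJ2 Cd14 rose by 3.10 (adjusted p = 0.0085) and Lyz2 by 2.79 (adjusted p = 0.025). Their sum, in which these moves offset each other, ran from 14734 to 16592 adjusted reads with RANKL alone, from 22039 to 22792 with heat-killed MJ2 and from 17390 to 18980 with surface proteins. The part of these shifts in the levels of Cdk1, Ccnb1 and the other genes was not tested.

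For each of the 10 genes, the genes with the nearest profile were sought among 11192 genes, by the root mean square difference of centred log2 levels over the 9 libraries. Nearest to Cdk1 were Tacc3 (0.126) and Cenpe (0.149), which act at the spindle and the kinetochore. Ccnb1 was nearest to Cdk1 and next to Cenpe (0.182), and Ccna2 was nearest to Mcm2 (0.089), another subunit of the replicative helicase, and Pomp (0.094). Near E2f1 lay Nop10 (0.131) and Mrpl12 (0.145), near Ccne1 Tpst1 (0.173) and Mb21d1 (0.187), and near Ccnd1 Eif1ad (0.134) and Gm4737 (0.138). Cdkn1a was nearest to Rap1b (0.063) and Lgals1 (0.083), Cdkn1b to Vegfb (0.144) and Trove2 (0.150), and Cdk4 to Mtch2 (0.047) and Ano6 (0.049). Myc had the most distant neighbours of the 10, Agpat4 (0.223) and Sh3bgrl2 (0.256). These distances describe 9 libraries that share their groups, and a gene that varies little, such as Cdk4, has small distances for that reason alone.

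**Figure D4:**
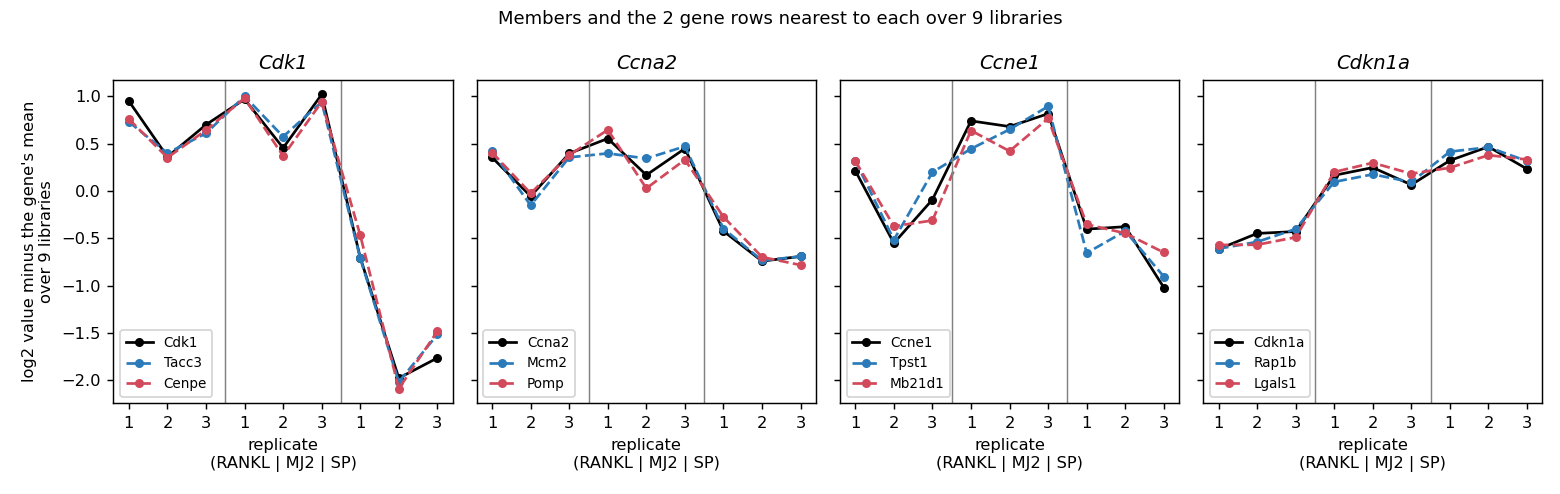
Log2 level minus the gene's own mean (vertical axis) in the 9 libraries, ordered by group, for Cdk1, Ccna2, Ccne1 and Cdkn1a (black, solid) and the 2 genes nearest to each (dashed). The lines of Cdk1, Tacc3 and Cenpe are lowest in the surface protein libraries, those of Ccne1, Tpst1 and Mb21d1 are highest with heat-killed MJ2, and those of Cdkn1a, Rap1b and Lgals1 are higher in both treated groups than with RANKL alone.

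The genes lie on GRCm38, by GENCODE M21, at chr7:144929931-144939925 (Ccnd1, minus strand), chr7:38097984-38107534 (Ccne1, minus), chr3:36564865-36572150 (Ccna2, minus), chr13:100778650-100786570 (Ccnb1, minus), chr10:69335146-69352938 (Cdk1, minus), chr10:127063534-127067920 (Cdk4, plus), chr17:29090976-29100727 (Cdkn1a, plus), chr6:134920401-134925513 (Cdkn1b, plus), chr2:154559407-154569892 (E2f1, minus) and chr15:61985391-61990374 (Myc, plus). For each gene, none of the 426 windows of 75 bases, the read length, in the last 500 bases of its longest protein-coding transcript was found in a transcript of another gene on the same strand.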

How the data were processed

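RNA from 9 samples of RAW 264.7 cells (3 groups of 3) was made into 3′-end libraries. Per the labels and the submitters' processing notes, reads were handled with Bowtie2 and bedtools on mm10, which is GRCm38. Versions, annotation and use of strand are not given in the sources used here. The authors deposited log2 values for 23282 gene rows per library and name quantile normalization, but sorted columns differed by up to 1.6, so the scaling is not known. The values were used as deposited.

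Raising 2 to the value and subtracting 1 gave adjusted reads, 5930926 to 6503682 per library, whose number limits the precision of low genes. Libraries of a group differed by more than counting noise alone (chi-square per degree of freedom from 6.9 to 18.5). That measure was taken on adjusted reads and not on raw counts, so it is a description only. Each comparison used limma 3.58.1 (lmFit and eBayes, R 4.3.3) on its own 6 libraries, for genes that reached 10 adjusted reads in 3 or more of them. Calls were made at an adjusted p under 0.05 (Benjamini-Hochberg), with a fold limit of 2 as a second rule. Python 3.11.15, numpy 2.4.6, pandas 2.3.3 and matplotlib 3.10.9 were used, and the code was tested on simulated data. Rows that share a symbol (35 symbols) were kept apart.

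The members and lists were chosen with earlier results of these data known. The genes named are the 10 members, genes from up to 2 called with the largest and 2 with the smallest change in each list and comparison, and the 2 nearest genes by profile. Named outside this rule, after their values were seen, were the genes that overlap a member (Exosc9, Oraov1 and Tspan31), the markers near or at 0 (Mertk and Calcr), and Mdm2, Bbc3 and Btg2 of the p53 list. Alternatives were 3 scalings, 2 filters, a larger constant added before taking logs, a joint fit of the 9 libraries, a replicate block, robust moderation, 2 rules with a fold limit, and fits with libraries left out.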

Additional observations from a re-analysis of the deposited data

Results flagged for a closer look

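For 6 of the 10 genes the level with surface proteins differed from that with heat-killed MJ2 by limma's test of that difference. The log2 fold changes, surface proteins minus heat-killed MJ2, were -0.95 for Ccnd1, -1.35 for Ccne1, -1.01 for Ccna2, -2.21 for Ccnb1, -2.30 for Cdk1 and -1.12 for E2f1. Of these, Ccna2, Ccnb1, Cdk1 and E2f1 were also lower with surface proteins than with RANKL alone, while Ccnd1 and Ccne1 did not pass against RANKL alone in either treated group. None of the 6 passed when heat-killed MJ2 replicate 1 or replicate 3 was left out, where 7 of the 10 genes had an unadjusted p under 0.05 by limma.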

How the results depend on the processing

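Of the 14 changes of single genes that passed, none reversed its direction under any of 18 alternatives, and their sizes stayed between 0.819 and 1.27 times the reported value. Of 252 such values, 183 kept their call and 69 lost it. Of 288 values of changes that had not passed, 11 passed and 9 changed sign. In surface proteins against RANKL alone, 3163 genes and 6 of the 10 were called. With the fold limit of 2 these were 1901 and 3, and without the 3 libraries that hold fractions of a read, an alternative chosen after seeing the data, 1259 and 2. Leaving out each library in turn gave from 1814 genes (without surface protein replicate 2) to 2507, and from 4 to 7 of the 10. In heat-killed MJ2 against RANKL alone, 636 genes and 2 of the 10 were called. No filter on low values gave 391 and 1, robust moderation with a trend 1423 and 4, leaving out the 3 libraries 1 and 0, and leaving out each in turn from 81 (without heat-killed MJ2 replicate 1) to 355 and 0 of the 10 (4 at an unadjusted p under 0.05 in each fit). A fold change of 2 or more was reached by 0 of the 10, by adjusted or unadjusted p. In surface proteins against heat-killed MJ2, 1949 genes and 6 of the 10 were called. No filter gave 1180 genes, robust moderation 3109, the fold limit of 2 gave 1098, and leaving out the 3 libraries 0 genes by limma (2329 at an unadjusted p under 0.05) and 0 of the 10 (6 at an unadjusted p). Leaving out each in turn gave from 374 (without heat-killed MJ2 replicate 1) to 1780 genes and from 0 to 7 of the 10. With the replicate number as a block, the 3 comparisons called 2531, 289 and 1356 genes and 6, 0 and 6 of the 10 (4 in place of the 0 at an unadjusted p under 0.05). Libraries with the same number had correlated deviations from their group means with r from 0.018 to 0.106, and each library correlated best with its own number in 18 of 18 lookups, a hint from the data and not from the design. The lookups read each correlation in both directions, so they are not independent. The cause of the differences in counts between settings was not tested, and fewer libraries are fitted where some are left out. Depth limits genes of few reads, such as Ccnd2 and Gadd45a in the control.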
